A study of Saccharomyces cerevisiae with 6 samples.

Results

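The 10 genes described here, FOL1, FOL2, FOL3, MET7, DFR1, MET12, MET13, SHM1, SHM2 and ADE3, encode enzymes that make folate or move one-carbon units on it in budding yeast. They are 10 of the 5656 genes that could be assigned to a probe set, and all 10 were bright enough to be among the 4525 genes tested. They were chosen by gene symbol with their signals and their mutant minus wild-type differences known. Those values are therefore given as a description, without a p-value. Signals were read on 6 single-colour arrays. The mutant strain, labelled H2B 3-32 for a change in histone H2B, was hybridised to 3 of them and a wild-type strain to the other 3. Per its label, the wild-type array of replicate 3 also served other H2B mutants. Cells of both groups were grown in rich medium (YPD) to mid-log phase. The labels do not give the strain background, how the H2B gene is carried or whether replicates were separate cultures, so the spread between arrays may be technical.

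Folate is a carrier of one-carbon units. Yeast makes it from GTP and para-aminobenzoate, reduces it to tetrahydrofolate and adds a tail of glutamates that keeps it in the cell. Serine then supplies the carbon, which leaves the cycle in purines, thymidylate, methionine and the initiator formyl-methionine of mitochondria.

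Of the 10 genes, FOL3 stood apart with lower signal on every mutant array. The other 9 had mean mutant minus wild-type differences between -0.14 and 0.32 on the log2 scale, on both sides of 0. The difference used throughout is that of log2(signal + 2.7), where the added 2.7 damps the noise of dim signals and makes their fold changes too small. Across the 10 genes the median difference was -0.04, with 4 above 0 and 6 below. Across all 4525 genes it was -0.06, with 1672 above 0 and 2853 below. The limma fit with the group only called 0 of the 10 genes at an adjusted p under 0.05. Over all genes that fit called 0.0221%, which is HTB1 alone, while 113 genes had an unadjusted p under 0.05. The limma fit with a replicate block, which compares same-numbered arrays, called FOL3 and none of the other 9. Over all genes it called 2.28% (0.884% or 40 genes higher and 1.39% or 63 genes lower), and 781 had an unadjusted p under 0.05. The genes were chosen from this same contrast, so nothing is read from these counts.

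HTB1, a gene for histone H2B, had signals of 16.1, 19.4 and 15.2 on mutant arrays and 1372, 1138 and 1191 on wild-type arrays. The log2 difference was -5.98 (limma adjusted p = 2.17e-06 with the group only). This fits the titles of all 6 arrays, which name histone H2B and not a gene. However, the place of the HTB1 probe set in the gene is unknown here. A probe set within the changed stretch would miss the rest of the transcript. The arrays of replicate 3 stood apart in both groups. Their median signals were 40.5 (mutant) and 40 (wild type), against 28.7 to 31 on the other 4 arrays. Their 9 spiked hybridisation controls averaged 196 (mutant) and 203 (wild type), against 682 to 899 on the others. The ratio of the 3′ to the 5′ ACT1 control, a sign of RNA and labelling quality, was 1.9, 1.59 and 1.46 on mutant arrays and 1.63, 1.69 and 1.38 on wild-type arrays. Control probe sets for 25S ribosomal RNA averaged 682, 336 and 203 on mutant arrays and 143, 217 and 91.5 on wild-type arrays, higher in the mutant in each same-numbered pair, and their part in the results was not tested. Differences are therefore also given by same-numbered pair, and without replicate 3 where that moves it.

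**Figure D1:**
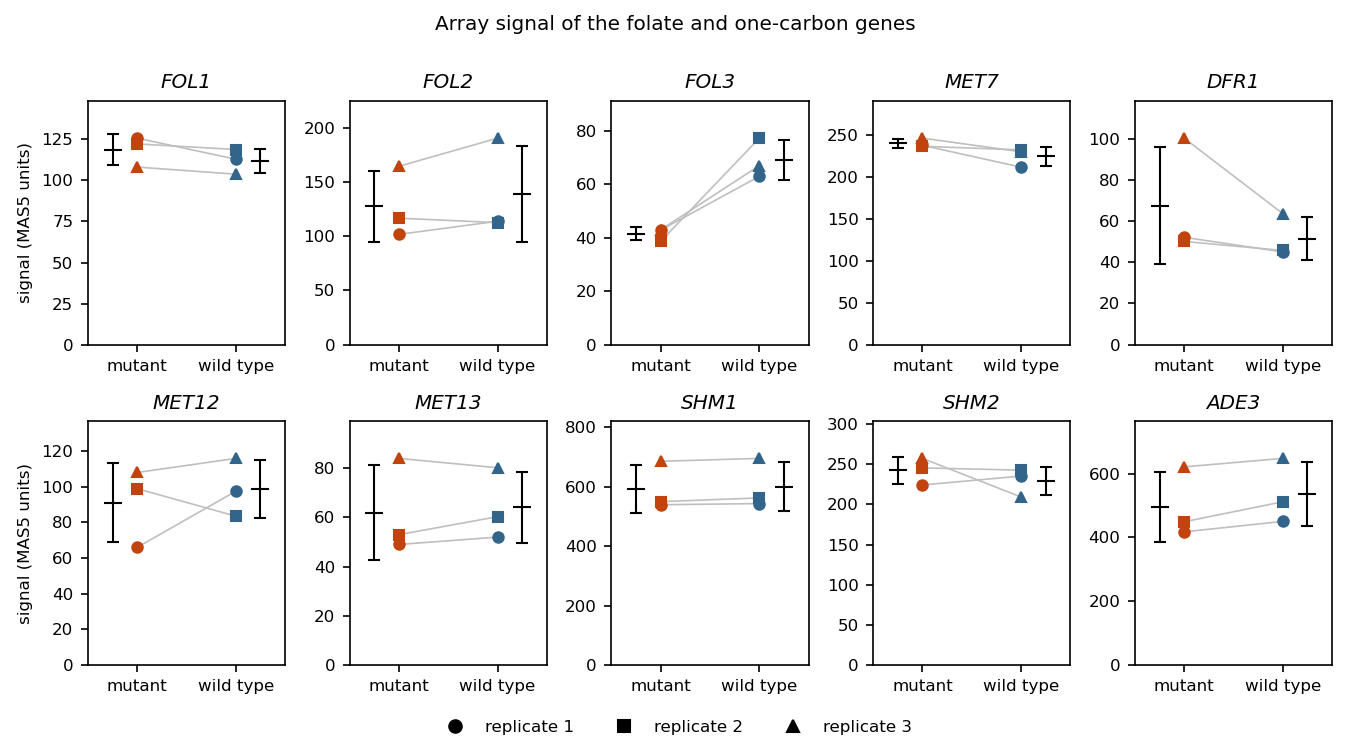
Signal of each gene on every array, in MAS5 units on linear axes that start at 0 (mutant orange, wild type blue). The marker shape gives the replicate, grey lines join same-numbered arrays and black bars are means with SD (n = 3). FOL3 lies between 38.7 and 43 on mutant arrays and between 63 and 77.3 on wild-type arrays, while FOL2, DFR1, MET13, SHM1 and ADE3 are set apart mainly by replicate 3.

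Folate synthesis begins with FOL2, GTP cyclohydrolase I, which commits GTP to the pterin ring. FOL2 had signals of 102, 117 and 164 on mutant arrays and 114, 112 and 190 on wild-type arrays. The highest array of each group was replicate 3, and the groups overlapped. The means were 127 ± 32.8 in the mutant and 139 ± 44.5 in wild type (SD, n = 3 each), a log2 difference of -0.11. The pairs differed in sign, at -0.16, 0.05 and -0.21. The mean turned to 0.14 without wild-type array 3 and to 0.04 without mutant array 1, and was -0.30 without mutant array 3.

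FOL1 encodes a single protein with the next 3 activities, dihydroneopterin aldolase, the pterin pyrophosphokinase and dihydropteroate synthase, the target of sulfa drugs. Its brightest probe set read 126, 122 and 108 on mutant arrays and 113, 119 and 104 on wild-type arrays. The groups overlapped, although each mutant array was above its same-numbered wild-type array, by 0.15, 0.04 and 0.06. The mean difference was 0.08 with this probe set, with an SD of 0.06 over the pairs, and -0.04 when all FOL1 probe sets were averaged.

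FOL1 is the only gene of the 10 with more than 1 probe set, and its 5 probe sets did not read alike. Probe set 2733_g_at was lowest on replicate 3 in both groups, with 44.7, 43.9 and 10.6 on mutant arrays and 34.1, 40.6 and 11.8 on wild-type arrays. Probe set 2734_s_at had the same shape, with 47.2, 60.5 and 20.7 on mutant arrays and 50.3, 51.7 and 20.7 on wild-type arrays. Both carry a suffix that marks possible signal from related sequences. The brightest, 9138_at, differed between replicate 3 and the others by -0.17 only, against -1.64 for 2733_g_at and -1.23 for 2734_s_at. The dimmest, 2732_at, stayed between 1.4 and 8.6 on all 6 arrays, close to the added 2.7, and its mean difference of -0.64 stands for means of 2.17 in the mutant and 5.27 in wild type.

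**Figure D2:**
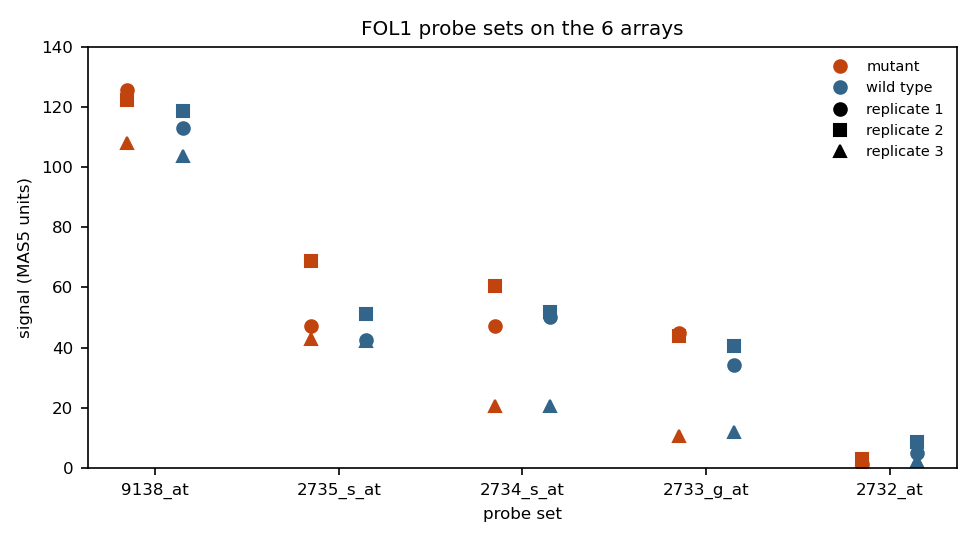
Signals of the 5 FOL1 probe sets (horizontal axis) in MAS5 units (vertical axis, linear from 0), mutant orange on the left and wild type blue on the right of each position, with the marker shape giving the replicate. The triangles of replicate 3 drop to between 10.6 and 20.7 in 2733_g_at and 2734_s_at in both groups, while 9138_at stays between 104 and 126.

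FOL3, dihydrofolate synthetase, joins glutamate to dihydropteroate and so produces the first folate of the pathway. Its signals were 42.9, 38.7 and 43 on mutant arrays and 63, 77.3 and 67 on wild-type arrays. The groups did not overlap, and the gap between the highest mutant and the lowest wild-type array was wider than the range within either group. The means were 41.5 ± 2.45 in the mutant and 69.1 ± 7.38 in wild type (SD, n = 3 each).

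The FOL3 difference was -0.70 on the log2 scale, with a standard error of 0.17 in the fit with the group only and 0.13 in that with the replicate block. By pair it was -0.53, -0.95 and -0.61, and -0.74 over replicates 1 and 2 alone. This placed it at the 0.287 percentile of all tested genes. The mean of the replicate 3 arrays differed from that of replicates 1 and 2 by 0.01 for FOL3 as deposited, by -0.37 with quantile normalization and by -0.39 with a common median. Quantile normalization gave a mutant minus wild-type difference of -0.64, scaling to a common median -0.66 and leaving out replicate 2 -0.57.

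MED11, a Mediator subunit gene that directly neighbours FOL3 in the R64 gene table, had signals of 39.7, 48.9 and 89.6 on mutant arrays and 46.8, 43.7 and 78.5 on wild-type arrays. Its log2 difference was 0.04 (limma adjusted p = 0.914 with the replicate block), so the lower signal was not seen in the gene on that side. The neighbour on the other side, YMR114C, was not among the tested genes. MED11 was picked for its position.

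The profile of FOL3 over the 6 arrays was closest to those of SML1, VCX1, IRC24, NIT2 and PDE1, with Pearson's r between 0.985 and 0.992 as a measure of likeness on 6 arrays in 2 groups. These genes were picked for this likeness out of all tested genes. All 5 had lower signal on every mutant array, which a choice by likeness to FOL3 brings with it. SML1, the inhibitor of ribonucleotide reductase, had nearly the same shape at a much smaller size: 1090, 1072 and 1107 on mutant arrays and 1170, 1206 and 1173 on wild-type arrays, a difference of -0.12. VCX1, a vacuolar calcium exchanger, had a difference of -0.46, with 262, 248 and 263 on mutant arrays and 352, 371 and 345 on wild-type arrays. IRC24 had a difference of -0.50, NIT2 of -0.37 and PDE1, a cyclic AMP phosphodiesterase, of -0.29.

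DFR1 encodes dihydrofolate reductase, the methotrexate target that turns dihydrofolate into the active tetrahydrofolate. It had signals of 52.1, 50.1 and 100 on mutant arrays and 45, 45.7 and 63.6 on wild-type arrays. Every mutant array was above its same-numbered partner, but the 2 lower mutant arrays lay below wild-type array 3, so the groups overlapped. The means were 67.5 ± 28.4 in the mutant and 51.4 ± 10.5 in wild type (SD, n = 3 each). The log2 difference of 0.32, the highest of the 10 genes, was largest in replicate 3. By pair it was 0.20, 0.13 and 0.63, and 0.16 over replicates 1 and 2. When mutant array 3 alone was left out it was 0.01.

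MET7, folylpolyglutamate synthetase, lengthens the glutamate tail. Its signals were 238, 237 and 247 on mutant arrays and 212, 233 and 231 on wild-type arrays. The groups did not overlap, as they did not for FOL3 in the other direction. Over all genes 7.65% had groups without overlap, 2.65% higher and 4.99% lower in the mutant. The MET7 difference was small, 0.10 with a standard error of 0.09 in the fit with the block, and its smallest pair difference was 0.03. DFR1 and MET7 lie on 1 chromosome with 3 genes between them in the R64 table.

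**Figure D3:**
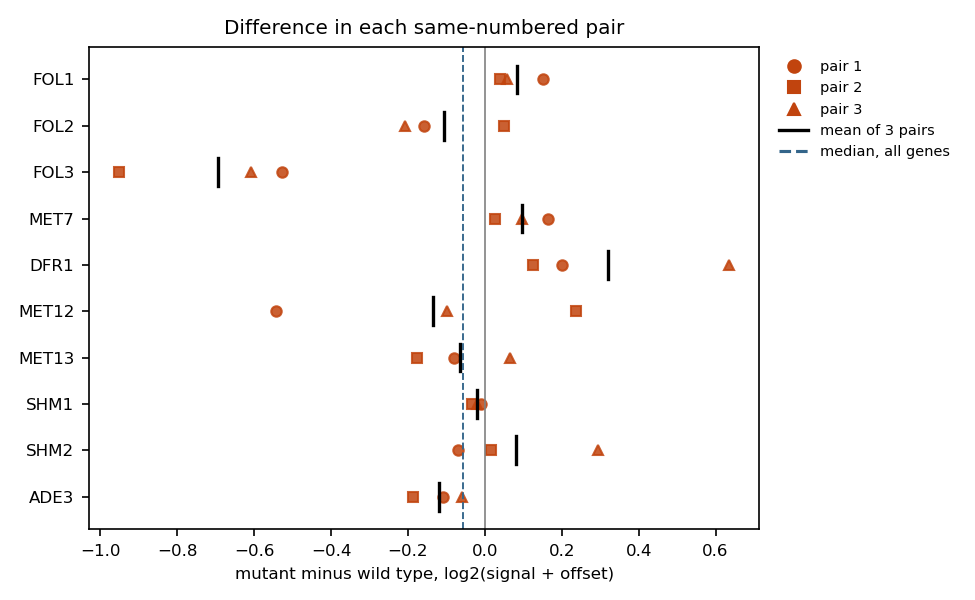
Mutant minus wild-type difference in log2(signal + 2.7) of each gene (rows) for the 3 same-numbered pairs (orange markers) and their mean (black bar), with the median of all 4525 genes as a dashed line. FOL3 lies at -0.53, -0.95 and -0.61, and MET12 is the most scattered, from -0.54 to 0.24.

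One-carbon units enter the folate pool mainly through serine hydroxymethyltransferase, which splits serine into glycine and a folate-bound carbon. SHM1, the mitochondrial form, had signals of 540, 550 and 686 on mutant arrays and 544, 563 and 696 on wild-type arrays. Same-numbered arrays differed by only -0.01, -0.03 and -0.02, the narrowest spread of the 10 genes, although replicate 3 was well above the others in both groups. The mean difference was -0.02, and 0.02 when arrays were scaled to a common median.

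SHM2, the cytosolic form, had signals of 224, 246 and 257 on mutant arrays and 235, 243 and 209 on wild-type arrays. The pair differences were -0.07, 0.02 and 0.29, and the groups overlapped. The mean of 0.08 rested on replicate 3, and over replicates 1 and 2 it was -0.03. As deposited, SHM1 but not SHM2 was higher on replicate 3 than on the other arrays in both groups.

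ADE3 encodes the cytosolic enzyme with 3 activities that interconverts methylene-, methenyl- and formyl-tetrahydrofolate, and so feeds purine synthesis. Its signals were 418, 449 and 622 on mutant arrays and 451, 512 and 648 on wild-type arrays. Each mutant array was below its same-numbered partner, by 0.11, 0.19 and 0.06, yet the groups overlapped almost completely. The means were 496 ± 110 in the mutant and 537 ± 101 in wild type (SD, n = 3 each), a log2 difference of -0.12. Leaving out wild-type array 3 alone turned it to 0.03.

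MET12 and MET13 encode methylenetetrahydrofolate reductases, which make the methyl-folate used for methionine, with MET13 as the main form. MET12 had signals of 66, 98.9 and 108 on mutant arrays and 97.5, 83.5 and 116 on wild-type arrays. It was the least repeatable of the 10 genes, with pair differences of -0.54, 0.24 and -0.10 around a mean of -0.14, and without replicate 1 the mean was 0.07. MET13 had signals of 49, 53 and 84 on mutant arrays and 52, 60.3 and 80.2 on wild-type arrays. Its pairs differed by -0.08, -0.18 and 0.06, the mean was -0.06, and quantile normalization gave 0.0033. For both genes the groups overlapped.

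The small differences also hung on single arrays. Those of FOL2, MET12, MET13, SHM1 and ADE3 each changed sign when 1 array was left out. By sign, 3 of the 10 genes (FOL1, MET7 and DFR1) were higher and 3 (FOL3, SHM1 and ADE3) were lower in all 3 pairs. Over all genes 11.5% were higher and 27.4% lower in all 3 pairs. The genes at the 2 steps next to FOL3 did not share its direction: FOL1 before it, by its brightest probe set, and DFR1 after it were above 0 in each pair.

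A second difference was that between replicate 3 and the other arrays of both groups. It was not itself a measure used in the choice of the genes, but the signals it comes from were known then. For FOL2, DFR1, MET12, MET13, SHM1 and ADE3 both arrays of replicate 3 were above all other 4 arrays, and for FOL1 both were below. Over all genes 51.2% lay above and 12.8% below in this sense, with a median difference of 0.29, against 0.35 for the 10 genes. The differences ran from 0.33 for SHM1 to 0.70 for DFR1 among those above. Much of this depended on scaling. With quantile normalization 4 of the 10 genes were above and 3 below (28.6% and 24.4% over all genes), and with a common median 2 were above and 4 below (19.8% and 36.6%). FOL2 and MET13 stayed above under all 3 scalings. As deposited, the replicate difference of all 7 genes was larger in size than their difference between mutant and wild type. What sets replicate 3 apart was not tested.

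**Figure D4:**
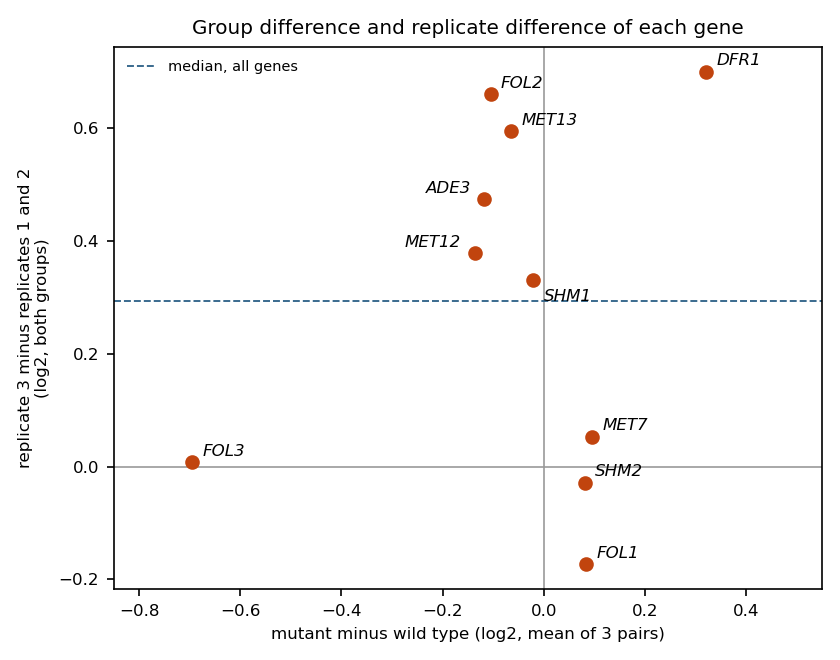
Mean mutant minus wild-type difference (horizontal axis) against the difference between replicate 3 and replicates 1 and 2 over both groups (vertical axis), both in log2(signal + 2.7), 1 point per gene. FOL3 is far to the left at -0.70 with a replicate difference of 0.01, while DFR1, FOL2 and MET13 lie at 0.70, 0.66 and 0.60 on the vertical axis, above the dashed median of all genes at 0.29.

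Beyond the 10 genes, 38 other genes of the pathway were looked up by name in 7 groups, and 30 were bright enough to test. With the replicate block 1 of the 30 fell, MET6, and 0 rose, beside 2.28% of all genes called in that fit, so the count is near that of all genes. With the group only limma called 0 of them. Their median difference was -0.04, with 12 above 0 and 18 below. The 8 dim genes were RMA1, FMT1, AGX1, MHT1, FDH1, PHO2, MET28 and MET32.

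MET6, methionine synthase, takes the methyl group from the folate that MET12 and MET13 make. Its signals were 115, 143 and 232 on mutant arrays and 185, 168 and 357 on wild-type arrays. Each mutant array was below its same-numbered partner, by 0.67, 0.23 and 0.61, but mutant array 3 was above wild-type arrays 1 and 2, so the groups overlapped. The log2 difference was -0.51 (limma adjusted p = 0.0253 with the replicate block, 0.00162 to 0.268 over the 13 settings with that block). Without wild-type array 3 alone the difference was -0.17, without mutant array 1 alone -0.29 and without mutant array 3 alone -0.79. The call was lost without replicate 3 (-0.45) and when the variance prior did not follow the mean level. In the 19 settings with no block the adjusted p was between 0.142 and 1.

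Of the 7 tested genes whose products use folates, MET6 among them, 5 had a difference above 0 and 2 below, and MET6 alone passed. CDC21, thymidylate synthase, had a difference of -0.37 from a probe set that may share signal, with 24.6, 18.2 and 55.3 on mutant arrays and 39.6, 25.2 and 57.9 on wild-type arrays. The CDC21 difference was -0.06 without mutant array 2 alone and -0.80 without mutant array 3 alone. MTD1, the NAD-dependent methylenetetrahydrofolate dehydrogenase, had a difference of 0.26 from pairs at 0.51, -0.03 and 0.29, with overlapping groups. Without wild-type array 1 alone the MTD1 difference was 0.06. ADE17, which uses formyl-folate late in purine synthesis, had a difference of 0.34 from pairs at -0.40, 0.45 and 0.97, of -0.12 without mutant array 3 alone, of 0.03 without replicate 3 and of 0.71 without replicate 1, where the fit with the block called it higher.

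Glycine cleavage, which passes the carbon of glycine to folate in mitochondria, was the group with the highest median difference, 0.33, although 0 of its 4 genes passed as deposited. GCV2, the P subunit, had signals of 99.9, 106 and 97.5 on mutant arrays and 75.1, 80.5 and 75.5 on wild-type arrays. The groups did not overlap, and the pairs gave 0.40, 0.38 and 0.36. The mean difference of 0.38 did not pass with the replicate block (limma adjusted p = 0.0827, 0.0219 to 0.325 over the 13 settings with that block). It passed with quantile normalization (0.44) and with a common median (0.42). GCV3, the H subunit, did not overlap either, with 371, 347 and 354 on mutant arrays and 266, 301 and 318 on wild-type arrays, a difference of 0.28. Of the 30 other pathway genes tested, 2 (GCV2 and GCV3) were higher without overlap and 1 was lower. Over all genes 2.65% were higher and 4.99% lower without overlap. GCV1, the T subunit, had a difference of 0.38 with overlapping groups. LPD1, the subunit shared with other dehydrogenase complexes, had a difference of -0.11.

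Of the genes that supply serine and glycine 0 of 5 passed. All 5 means were below 0 as deposited, as were 2853 of all 4525 genes, but those of SER1 and SER33 were above 0 without replicate 1 (0.09 and 0.15) and after quantile normalization (0.0016 and 0.0061), and SER1 also with a common median (0.02). SER3, the first enzyme of serine synthesis, had a difference of -0.37 from pairs at -1.0, 0.21 and -0.32, and of -0.06 without replicate 1. GLY1, threonine aldolase, had a difference of -0.17 and SER2, the last enzyme of serine synthesis, of -0.13, both lower in all 3 pairs. In the methyl cycle, which uses S-adenosylmethionine as the methyl donor, 0 of 5 passed and the median was -0.08. SAM2, an S-adenosylmethionine synthetase, had a difference of -0.28, its sister SAM1 of -0.08 and SAM4 of -0.08.

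Among genes for folate precursors and handling 0 of 3 passed. FAU1, which recycles formyl-folate, had a difference of -0.29, ABZ2 and ABZ1 of para-aminobenzoate synthesis had -0.14 and 0.08. ABZ2 did not overlap between groups, with 78, 70.2 and 74 on mutant arrays and 82.7, 84.6 and 78.4 on wild-type arrays. Over all genes 4.99% were lower without overlap. SFA1, which acts on formaldehyde bound to glutathione, had a difference of -0.04. Of the transcription regulators 0 of 5 passed. CBF1, a regulator of methionine genes, had a difference of -0.31, GCN4, the activator of amino acid synthesis, of -0.19, and MET31 of 0.04.

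**Figure D5:**
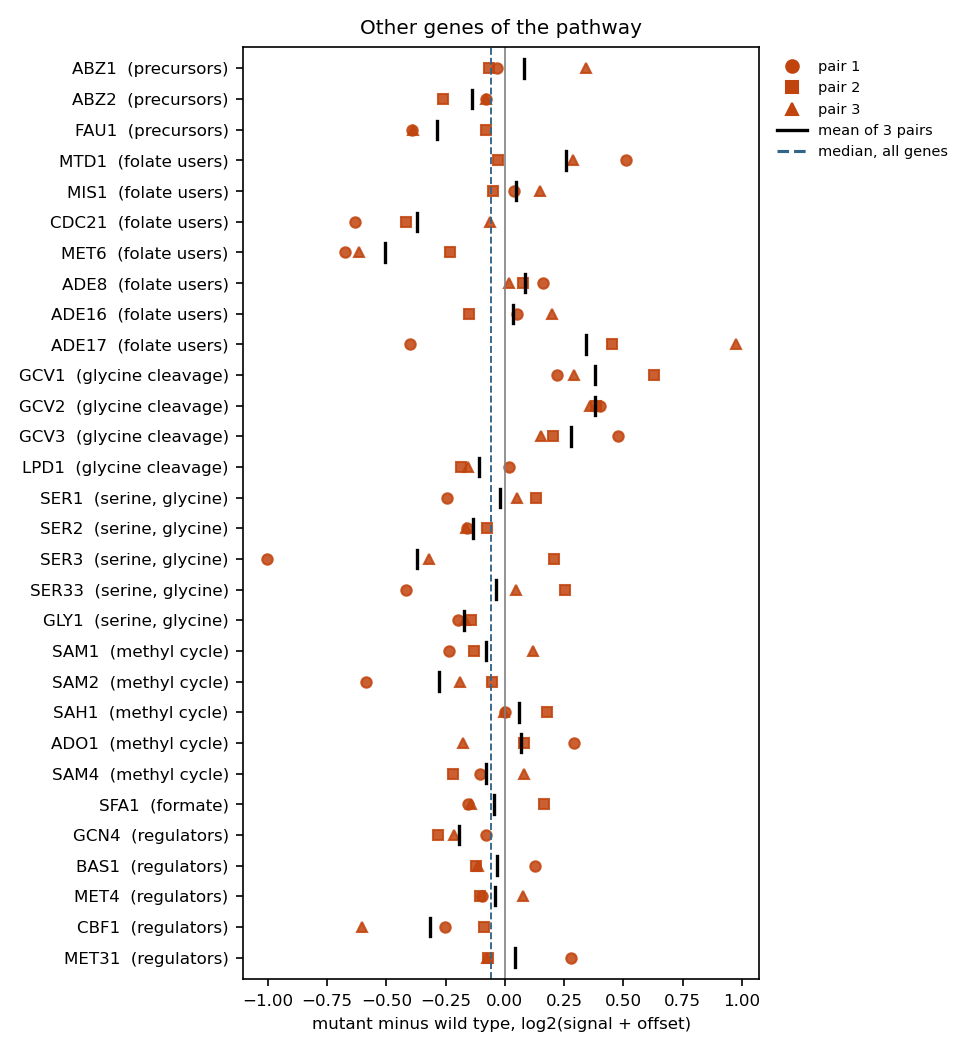
Mutant minus wild-type difference in log2(signal + 2.7) of the 30 other tested genes of the pathway (rows, with their group in brackets), for the 3 same-numbered pairs (orange markers) and their mean (black bar). The dashed line is the median of all 4525 genes. GCV2 lies between 0.36 and 0.40 in all 3 pairs and MET6 between -0.67 and -0.23, while ADE17 and SER3 spread over more than 1 unit.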

How the data were processed

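The deposited table holds 1 linear intensity for each probe set and array. The authors made it with MAS5, per the submitters' processing notes, which give neither a version nor settings. The 2% trimmed mean of every column was 125.1 or 125.2, so the values were used as deposited. Of 9335 probe sets, 60 controls were left out. Genes came from the platform's gene table, which can be old: 6504 probe sets had 1 gene and were used, 328 had several and 2443 had none. All 5656 genes were found in the R64 table, from which current symbols were taken, and each was represented by its brightest probe set. Before log2, 2.7 was added (the 10th percentile of all signals). Genes with a mean below the 20th percentile (1131) were left out.

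The 4525 others were fitted in R 4.3.3 with limma 3.58.1 (functions lmFit and eBayes, whose variance prior follows the mean level). Tests were two-sided, p-values were adjusted over all of them by Benjamini-Hochberg, and the threshold was 0.05. One fit held the group only. The other added the replicate number of the labels as a block. Deviations of same-numbered arrays from their group means correlated across genes at 0.525, 0.593 and 0.864, all above 0.1, so the numbers were taken to pair the arrays. Replicates 1 and 2 correlated as well with each other's partners (0.505 and 0.646), so for them the pairing rests on the labels. The block leaves each gene 2 residual degrees of freedom, fewer than the 12.5 of the shared variance prior. The number of arrays limits the precision. The steps were tested on simulated data.

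The 10 genes, the other pathway genes (a list from textbook knowledge) and the tests were chosen with earlier results of these data known. Named were the 10 genes, HTB1, pathway genes that passed in either fit, up to 3 more per group with the largest differences, and the 5 genes with the profile most like FOL3. MED11 was named by position, and LPD1, SER1 and SER33 were named after their values were seen. Sequences were not used here. The alternatives were the replicate block, a batch block for replicate 3, quantile normalization, a common median, other offsets and filters, averaging the probe sets of each gene, unmarked probe sets, no variance trend, and leaving out arrays or pairs. Settings within the fit with the block were added after the data were seen.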

Additional observations from a re-analysis of the deposited data

How the results depend on the processing

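The number of arrays limits every value, and replicate 3 decides several. Over all genes, limma with the group only called 1 gene. It called 103 with the replicate block, 119 with a batch block for replicate 3 and 2 with quantile normalization. It called 1 to 2 without any single array and 1 to 53 without any pair (53 without replicate 3), and with the block 207, 25 and 15 without replicates 1, 2 and 3. With the block, 181 genes were called after quantile normalization, 216 with a common median and 56 with no variance trend, against 103. Of the 10 genes, chosen on this contrast, the fit with the block called 1 (FOL3). It called 0 to 1 without any pair (0 without replicate 2 or 3). With no block FOL3 was called in 1 of 19 settings, the one without replicate 3. Nothing is read from these counts. The log2 difference of FOL3 stayed between -0.78 and -0.57.

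The median difference of the 10 genes, -0.04, ranged from -0.201 to 0.0601 without any single array and from -0.04 to 0.01 without any pair. That of the other pathway genes, -0.04, was 0.0038 (quantile) and -0.0049 (common median), from -0.0821 to 0.0011 without any single array and from -0.0696 to -0.0311 without any pair. The count of other pathway genes called with the block, 1 (MET6), was 2 with quantile normalization or a common median, which added GCV2, 0 with no variance trend, and 0 to 2 without any pair, where leaving out replicate 1 added ADE17. Of 230 values of the 10 genes under these settings, 208 moved by less than the SD of the pairs and 22 by more. Many of the 208 could not move, since blocks, filters and the variance trend leave the log2 difference of a gene unchanged. Leaving out a pair also gives the same difference with and without the block. The 208 are therefore no measure of stability. On all 6 arrays the replicate block, which pairs them, added the calls of FOL3, MET6, VCX1 and IRC24. It changed no other call of the named genes. FOL3 was chosen on this contrast. VCX1 and IRC24 were picked for their likeness to FOL3 on these same arrays, so nothing is read from the calls of these genes.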
